A study of Mus musculus with 17 samples.

Results

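Transcript levels were compared between isolated adult mouse cardiomyocytes of 2 genotypes after 8 h of actinomycin D. The comparison used the 3 libraries labelled KO and the 3 labelled WT at that time, 6 of the 17 libraries of the series, chosen by genotype and hour as the labels give them. KO means a loss of function of MBNL1 and WT is the control genotype. All the mice were 60 days old (P60), and all cells were ventricular myocytes freed from the heart by enzyme perfusion and plated on laminin for 3 h before actinomycin D was added at 2 µg/mL, so both genotypes carried the same drug. The same genotypes at 0 h (3 and 3 libraries) and 4 h (3 KO and 2 WT) were used as reference points. The labels do not say which part of Mbnl1 was altered, whether a transgene or a Cre was present, or whether libraries of one group came from separate animals, so the p-values measure the spread between these libraries, which may be technical.

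MBNL1 is a muscleblind RNA-binding protein with zinc fingers that bind short GC steps flanked by pyrimidines. In striated muscle it is known for moving splicing from fetal to adult isoforms, and it also acts on polyadenylation, localization and decay of transcripts. It is the protein sequestered by expanded CUG repeats in myotonic dystrophy. Actinomycin D binds DNA and stops the elongation of new transcripts, so RNA collected hours later is mostly RNA that already existed. The series asks which transcripts differ in stability with MBNL1, and the 8 h comparison shows what was left at the end of the block.

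Short stretches of 3′ UTR are shown for the 3 genes that lead each direction below (Esr1 set aside), because that is where muscleblind contacts are often described. Each line is the 30-base window with the most copies of a tetramer with GC in the middle and a T or a C on each side (TGCT, for example) on the transcript strand of the longest annotated 3′ UTR (GENCODE M21, GRCm38), copies in capitals. The first 3 genes were higher in KO and the last 3 lower.
Emilin2, chr17:71252651-71252680, minus strand: atctagctTGCTgcacacactcTGCCTGCC
Tnnt1, chr7:4504725-4504754, minus strand: gacTGCCaggacatgaccTGCTgtgtggag
Myl9, chr2:156781163-156781192, plus strand: gctgttcttagcTGCCccagTGCCtagacc
Nr4a1, chr15:101274279-101274308, plus strand: acgtgcgTGCTcttctgtcacccatgTGCC
Cenpf, chr1:189642470-189642499, minus strand: cctgagtctttaTGCTgtgtgtgtggTGCT
Ephx1, chr1:180989613-180989642, minus strand: tcctctcttaccacccccataTGCTtCGCC
Such windows are common. Of 11964 tested genes with an annotated 3′ UTR, 85.4% had a window with at least 2 copies and 51.7% one with at least the 3 found in Emilin2. Over whole UTRs the median density was 12.6 copies per kb for genes higher in KO, 13.0 for genes lower and 12.5 for genes not called (1740, 1714 and 8510 genes). Of the genes higher in KO, Emilin2 had 22.3 copies per kb, Tnnt1 27.0 and Myl9 12.1, densities reached by 7.1%, 3.03% and 54.4% of all UTRs. Of the genes lower, Nr4a1 had 9.21, Cenpf 11.0 and Ephx1 17.8, reached by 77.9%, 63.5% and 17.6%. The AU-rich heptamer TATTTAT, a letter string of unstable transcripts, was found in 28.5% of higher, 32.4% of lower and 30.9% of uncalled UTRs. Those shares are not adjusted for length, and the median UTR lengths had the same order: 1103.5, 1375.5 and 1204 bases. All these motif counts are matches of letters, read on the transcript strand and counted where copies overlap, not sites of binding.

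The 8 h libraries held 17305522 to 17968827 counts, 18102 to 18363 detected genes and a mitochondrial share of 35.1 to 36.9%, with overlapping ranges of the mitochondrial share in the 2 genotypes. The first principal component of these 6 libraries held 54.6% of the variance and parted KO from WT. Cardiomyocyte markers dominated every library, with a summed level of 61596 to 66560 CPM (a gene's counts as parts of each library's total scaled to 1e6) in KO and 50731 to 56986 in WT. The gene named in the genotype did not mark the KO libraries by a loss of transcript. Mbnl1 stood at 100, 106 and 105 CPM in KO and at 86.7, 85.7 and 88.1 in WT, higher in KO by 0.26 ± 0.05 on the log2 scale (SE, n = 3 and 3, edgeR quasi-likelihood test, adjusted p = 2.1e-05). Counts over the whole gene do not show whether an altered part is missing, so this level does not check the labels, and KO below means the libraries labelled so. Mbnl2, a paralog, differed by 0.25 ± 0.05 (adjusted p = 3.3e-05). Mbnl3 had between 0 and 4 counts a library and was not tested.

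The sharpest mark of the KO libraries was Esr1, the gene of estrogen receptor alpha. It had 39139, 36443 and 38516 counts in the KO libraries and 7, 8 and 57 in WT, a ratio of 1543 (95% interval 1225 to 1972, covering counting error only). Across all KO libraries of the series it ranged from 36443 to 46057 counts. What carries the Esr1 sequence in these mice is not in the labels, and its part in any other difference cannot be told apart from that of the genotype. CPM here are scaled by trimmed means of M-values (TMM), and each value is a share of the RNA that remained, so a loss common to all transcripts is not seen.

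At 8 h, 3645 of 13229 tested genes (27.6%) differed at an adjusted p below 0.05. Of these 1836 were higher in KO (13.9% of those tested) and 1809 lower (13.7%). Most differences were small: the median fold among called genes was 1.24 for those higher and 1.37 for those lower, and 1036 genes (7.83%) were called and over 1.5-fold. Past 2-fold the sides were uneven, with 177 higher (1.34%) and 317 lower (2.4%), 494 in all (3.73%). Large differences were concentrated among weakly expressed genes. With genes cut into 5 equal bins by expression level, 11.6% of the lowest bin were called and over 2-fold, against 0.378% of the highest. In that lowest bin 9.15% of genes were called lower at any size and 4.65% higher. The 3 KO and 3 WT values did not overlap for 5132 genes (38.8%). The even split of calls depends on scaling and on the tool. Scaled to library size alone, 23.8% of calls were higher, scaled to ribosomal protein transcripts 33.4%, and with RLE size factors 56.7%. DESeq2, which differs in its test as well as its scaling, gave 60.7%.

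After Esr1, the largest differences among well-expressed genes higher in KO (mean log2 CPM of at least 3, groups not overlapping) were in Emilin2, Tnnt1, Myl9 and Myl1. Emilin2 (ENSMUSG00000024053, chr17:71252172-71311978 in GRCm38), an extracellular glycoprotein of elastic fibres, stood at 54.0, 46.7 and 52.8 CPM in KO and at 9.83, 9.21 and 8.79 in WT. The lowest KO library was far above the highest WT library, a 5.52-fold difference (log2 2.46 ± 0.08, adjusted p = 1.2e-37). Tnnt1 (ENSMUSG00000064179, chr7:4504570-4516382), the slow skeletal troponin T, stood at 71.2, 69.8 and 67.6 CPM in KO and at 15.9, 15.7 and 16.8 in WT. This was 4.31-fold (log2 2.11 ± 0.07, adjusted p = 1.3e-36). Myl9, a regulatory light chain of smooth muscle, stood at 16.9, 18.2 and 15.6 CPM against 5.51, 4.75 and 4.28, and Myl1, a fast skeletal essential light chain, at 46.5, 45.1 and 51.2 against 16.0, 13.2 and 13.3. The log2 differences of Myl9 and Myl1 were 1.80 ± 0.11 and 1.75 ± 0.08.

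The other leading genes higher in KO belonged to several roles. Dmd, which encodes dystrophin, stood at 174, 201 and 188 CPM in KO and at 77.2, 77.1 and 83.0 in WT, 2.37-fold higher. Dstn, destrin, an actin-depolymerizing factor, was at 294, 295 and 297 CPM against 133, 120 and 129, the KO libraries lying within a few CPM of each other. Ppp2r3a, a regulatory subunit of protein phosphatase 2A, was at 399, 414 and 414 CPM against 187, 188 and 197. Gpx3, a secreted glutathione peroxidase, was at 162, 178 and 175 against 81.9, 77.1 and 77.5. The remaining members, all between 1.07 and 1.25 on the log2 scale, were Icam1 (a leukocyte adhesion molecule), Ednra (the endothelin A receptor), Abca4 (a lipid transporter), Strn (striatin), Upp1 (uridine phosphorylase) and Resf1. Esr1 apart, the 14 leading genes ran from 1.07 to 2.46.

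Among genes lower in KO under the same limits, Nr4a1 (ENSMUSG00000023034, chr15:101254269-101274795), an inducible orphan nuclear receptor, led. It stood at 10.8, 11.9 and 11.7 CPM in KO and at 54.2, 56.8 and 54.7 in WT, and the groups were far apart. It was 4.82-fold lower in KO (log2 -2.27 ± 0.07, adjusted p = 6.9e-38), and its relative Nr4a3 was 2.76-fold lower (log2 -1.47 ± 0.10). Cenpf, a kinetochore and microtubule-linked protein, stood at 4.35, 5.04 and 5.53 CPM against 21.9, 22.2 and 27.2 (log2 -2.26 ± 0.10). Ephx1, the microsomal epoxide hydrolase, stood at 4.35, 6.09 and 5.41 against 22.4, 21.7 and 21.1 (log2 -2.04 ± 0.10). Both were more than 4-fold apart.

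Further down the same side, Cpxm2, a carboxypeptidase-like protein, stood at 14.6, 14.2 and 16.2 CPM against 55.6, 50.9 and 50.4. Scn4b, a beta subunit of voltage-gated sodium channels, stood at 38.6, 40.8 and 35.3 CPM against 100, 104 and 102, 2.67-fold lower in KO. Also on this side were Scd4, a stearoyl-CoA desaturase (log2 -1.56 ± 0.08), Thrsp, a lipogenic nuclear protein (-1.40 ± 0.07), and Ucp3, a mitochondrial uncoupling protein (-1.30 ± 0.07). Ucp3 stood at 16.4, 14.7 and 14.6 CPM against 36.8, 36.2 and 40.2. The other members were Phf20, Mgst1 (a microsomal glutathione transferase), Sik1 (a salt-inducible kinase), Alad (an enzyme of haem synthesis), Itpr1 (an inositol trisphosphate receptor) and Egf, between -1.23 and -1.08. None of the 30 leading genes lost its call under any of the alternatives tried.

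**Figure D1:**
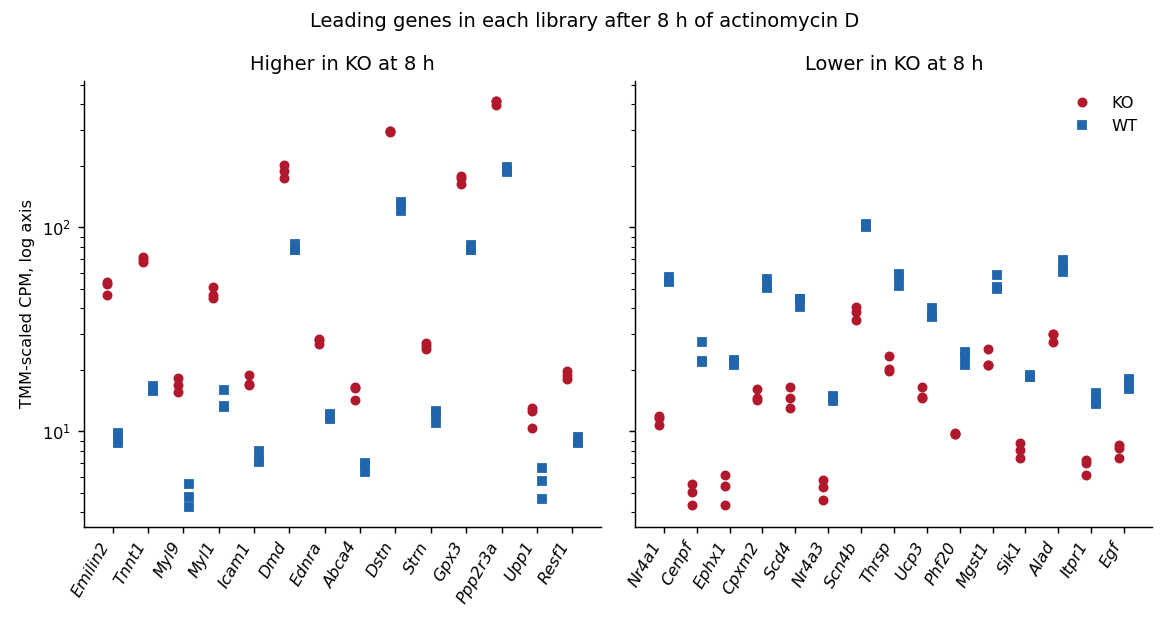
TMM-scaled CPM (log axis) of the leading genes in each of the 3 KO (circles) and 3 WT (squares) libraries at 8 h, genes higher in KO on the left and lower on the right, Esr1 left out for scale. Only genes with non-overlapping groups were eligible, so the 3 KO points of each gene lie on one side of the 3 WT points by choice. Emilin2 runs from 46.7 to 54.0 CPM in KO and from 8.79 to 9.83 in WT.

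Contractile genes were mostly higher in KO. Over all tested genes 13.9% were higher and 13.7% lower, the shares to set beside each list below. By expression level the share called higher rose from 4.65% in the lowest of 5 bins to 33.6% in the highest. List counts are not adjusted for level. Of 28 adult sarcomere genes, 17 were higher and 3 lower, with a median log2 difference of 0.22 (all tested genes -0.02). Myom1, an M-band protein whose gene model overlaps Myl12a on the other strand, differed by 0.52 ± 0.04, and Actn2, the Z-disc alpha-actinin, by 0.48 ± 0.04. Actn2 stood at 1779, 1789 and 1822 CPM in KO against 1266, 1271 and 1329 in WT. Xirp2 (-0.34) and Xirp1 (-0.21), actin-binding repeat proteins, and Myoz2 (-0.16) were the 3 lower members. Scaled to library size alone the same list had 12 higher and 6 lower.

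In the list of fetal, slow-fibre and smooth muscle isoforms, 13 of 21 tested genes were higher and 4 lower in KO, with a median of 0.47. The list was mixed and does not measure a single programme: it also held the fast skeletal genes Myl1, Tnnt3 and Tnni2, and Vim and Ankrd1. Besides Tnnt1, Myl9 and Myl1, the fast skeletal troponin T gene Tnnt3 stood at 6.10, 6.09 and 5.59 CPM in KO and at 0.178, 0.286 and 0.41 in WT (log2 4.31 ± 0.25). The fast troponin I gene Tnni2 differed by 1.90, Tpm2 by 1.36 and Tpm3 by 0.86. Genes of the hypertrophic fetal programme moved less: Nppa, which encodes atrial natriuretic peptide, by 0.80 ± 0.05, Nppb by 0.63, Myh7, the slow myosin heavy chain, by 0.63 and the skeletal actin gene Acta1 by 0.47. Counts on Myh7 could not be parted by strand from its antisense transcript Mhrt. The 4 lower members were the atrial light chains Myl7 (-1.97) and Myl4 (-1.10), with Vim (-0.72) and Ankrd1 (-0.13).

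Myl7 and Myl4 also belong to the atrial markers, of which 5 of 9 were lower and 1 (Nppa) higher. The summed level of the atrial list was 559 to 567 CPM in KO and 763 to 820 in WT at 8 h, and 416 to 430 against 531 to 587 at 0 h. The sarcolipin gene Sln, an atrial regulator of the calcium pump, was at 0.181, 0.124 and 0.421 CPM in KO against 1.60, 1.54 and 0.937 in WT. In bulk RNA fewer cells of a type and less RNA per cell cannot be told apart.

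No nuclear gene of the respiratory chain or citric acid cycle lists was called lower in KO. In respiratory complex I 24 of 37 genes were higher and none lower (median 0.22). In complexes II to V it was 30 of 42 and none lower (0.26), and in the citric acid cycle 18 of 20 and none lower (0.31). Cox8a, a subunit of cytochrome oxidase, stood at 148, 152 and 159 CPM in KO against 106, 103 and 102 in WT (log2 0.56 ± 0.05). Cox6a1 (0.56), Cyc1 (0.53), Pdhx (0.42), Idh2 (0.39) and Ndufa8 (0.33) were among the other differences. With library size alone the counts were 16, 21 and 13 higher, with 1 lower in complexes II to V. The 13 mitochondrially encoded mRNAs gave 2 higher and none lower. The gene models of mt-Nd5 (0.42) and mt-Nd6 (0.63) lie on opposite strands and overlap only in part. Whether the counting used strand is not given in the sources used here. The median of that list was 0.20, and it was -0.032 without KO replicate 2, 0.080 without WT replicate 1 and 0.003 without WT replicate 2.

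Fuel genes were divided. In glycolysis 13 of 24 genes were higher and 1 lower (median 0.22), among them Pgam1 (0.59) and Gapdh (0.39), which stood at 5213, 5273 and 5305 CPM in KO against 4008, 4034 and 4002 in WT. Hk2, the insulin-regulated hexokinase, was the lower one (-0.26). Fatty acid oxidation had 10 higher, such as Etfa (0.37) and Acadl (0.29), and 8 lower, led by Ucp3 and by Pdk4 (-0.60 ± 0.04), the kinase that shuts pyruvate dehydrogenase. Its median of 0.06 changed sign with library size alone. Lipid and sterol synthesis had 8 of 23 lower and 3 higher (median -0.20, or -0.09 without KO replicate 2 and -0.12 without WT replicate 3): after Scd4 came Scd2 (-1.43) and Fads1 (-0.98).

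Membrane and junction genes went both ways. Of 31 ion channel genes, 10 were lower and 3 higher (median -0.06), with Scn4b and Kcnv2 (-0.66) on the lower side and Kcne1, a potassium channel subunit (1.20), on the other (5 higher without WT replicate 2). Kcne1 stood at 8.46, 8.33 and 9.38 CPM against 3.67, 3.38 and 4.34. Calcium handling had 7 of 27 higher and 6 lower: Casq1, the skeletal calsequestrin, was 2.01-fold higher and Slc8a1, the sodium-calcium exchanger, 1.54-fold, against Itpr1 (-1.09) and Camk2b (-0.68). At the intercalated disc and costamere 8 of 20 were higher (Dmd, Ctnna3 0.62, Vcl 0.53) and 4 lower (Dsg2 -0.38, Gja1 -0.25), or 2 without KO replicate 2. Gja5 was called lower (-1.34, adjusted p = 0.0228), and without KO replicate 2 its adjusted p was 0.131. Actin turnover had 9 of 29 higher, led by Dstn, and 4 lower. The medians of the calcium, junction and actin lists changed sign with library size alone, so no direction is given for them.

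Immediate early genes were mostly lower in KO. Of 38 immediate early genes 22 were lower and 2 higher, with a median of -0.40. Fos stood at 43.5, 45.5 and 44.7 CPM in KO against 69.1, 75 and 72.7 in WT (-0.70), and Atf3 at 25.3, 19.9 and 23.7 against 34.3, 37.1 and 37.7 (-0.66). Dusp1 (-0.79), Klf2 (-1.35) and Sik1 (-1.20) were on the same side. The 2 higher members were Ccn2 (0.64), a matricellular protein, and Ier5 (0.41).

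In the unfolded protein and integrated stress response 16 of 29 genes were lower and 1 higher (median -0.37). Hspa5, the main chaperone of the endoplasmic reticulum, stood at 505, 537 and 500 CPM in KO against 750, 706 and 776 in WT (log2 -0.53 ± 0.04). Sdf2l1 (-2.04), Asns, asparagine synthetase (-1.68), Manf (1.99-fold lower) and Xbp1, the transcription factor spliced on reticulum stress (-0.72), were lower, and Herpud1 was higher (0.25). Of 23 p53 targets 10 were lower and 2 higher (median -0.31), with Eda2r (-1.31), Phlda3 (-1.16), Gadd45a (-0.77) and Cdkn1a (-0.48) lower and Sesn1 (0.39) higher. The heat shock list had 9 of 27 lower and 5 higher. Its lowest members, Hspa1b (-1.43) and Hspa1a (-0.94), are near-identical copies whose reads can be split by the counting, while the mitochondrial chaperones Hspd1 (0.23) and Hspe1 (0.36) were higher. Antioxidant and xenobiotic genes were divided, 7 of 28 higher with Gpx3 and 8 lower with Ephx1, Hmox1 (-0.86) and Srxn1 (-0.74). Cyp1a1 had no count in any KO library and at most 0.234 CPM in WT, so no fold is given.

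Interferon-response genes were on the other side: 14 of 36 were higher and 2 lower (median 0.30). B2m, the light chain of class I molecules, stood at 62.9, 58.0 and 65.4 CPM in KO against 36.5, 35.8 and 32.2 in WT (0.83 ± 0.06). Igtp, an immunity-related GTPase, differed by 1.03 and Rsad2 by 1.45, and Ifit2 was lower (-0.74). Of 24 NF-kappaB targets 6 were higher, with the chemokine gene Ccl7 (3.38, 0.786 to 1.80 CPM in KO and at most 0.178 in WT) and Icam1, and 4 lower (2 without KO replicate 1). The median of that list (0.08) changed sign with library size alone. Macrophage and leukocyte markers, whose cells express many of these genes, had 5 of 18 higher and 1 lower at 8 h. Without KO replicate 1 the number higher was 1, without WT replicate 2 it was 3 and without WT replicate 3 it was 2. Their summed level was 35.7 to 40.2 CPM in KO and 28.8 to 37.0 in WT, overlapping, with no member at 0 in all 8 h libraries. Their part in the interferon difference was not tested.

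Lists of RNA and protein turnover had medians near 0. Of 79 ribosomal protein genes 16 were higher (20.3%) and 2 lower (2.53%), Rpl30 (-0.67) and Rpl10 (-0.42). The median was 0.07. That count had no fixed direction: scaling by library totals turned it to 5 higher against 10 lower, and it was 7 higher without WT replicate 2 and 9 without KO replicate 3. Many ribosomal protein genes have processed copies that share reads. The proteasome had 7 of 31 higher and none lower, translation factors 4 higher and 3 lower of 35, and the mRNA decay machinery 13 higher and 6 lower of 59 (2 lower without KO replicate 2 and 3 without WT replicate 1, and 8 translation factors higher without WT replicate 1 and 1 lower without KO replicate 2). Cnot9 (0.56) and Smg1 (0.51), of deadenylation and nonsense-mediated decay, were the highest decay genes and Tob1 (-0.34) was among the lowest. The medians of these lists changed sign with library size alone.

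Of 30 tested muscleblind and muscle splicing factors 13 were higher and 1, Srsf5 (-0.34), lower, with a median of 0.12. Srsf10 stood at 27.4, 27.9 and 24.7 CPM in KO against 15.7, 16.6 and 20.2 in WT (0.61 ± 0.08), and Tra2b, a partner of SR proteins, differed by 0.50. With library size alone 7 were higher and 2 lower. Cardiac transcription factors were split, 6 of 28 higher with Ppara (0.58) and Ppargc1a (0.45), regulators of oxidative metabolism, and 5 lower with Sox4 (-1.57), 3 without KO replicate 2 or WT replicate 2. Atrophy and autophagy genes had 6 of 26 higher (Foxo3, 0.57) and 8 lower (Fbxo32, atrogin-1, -0.41). The circadian list had 5 of 21 higher, Per2 (0.72) first, and 4 lower, Cry2 (-0.38) first, or 2 without WT replicate 3. Of 30 cell cycle genes 4 were higher (2 without KO replicate 2 or WT replicate 1) and 2 lower, Cenpf among them (1 without WT replicate 3), which is 13.3% and 6.67% against 13.9% and 13.7% of all tested genes.

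**Figure D2:**
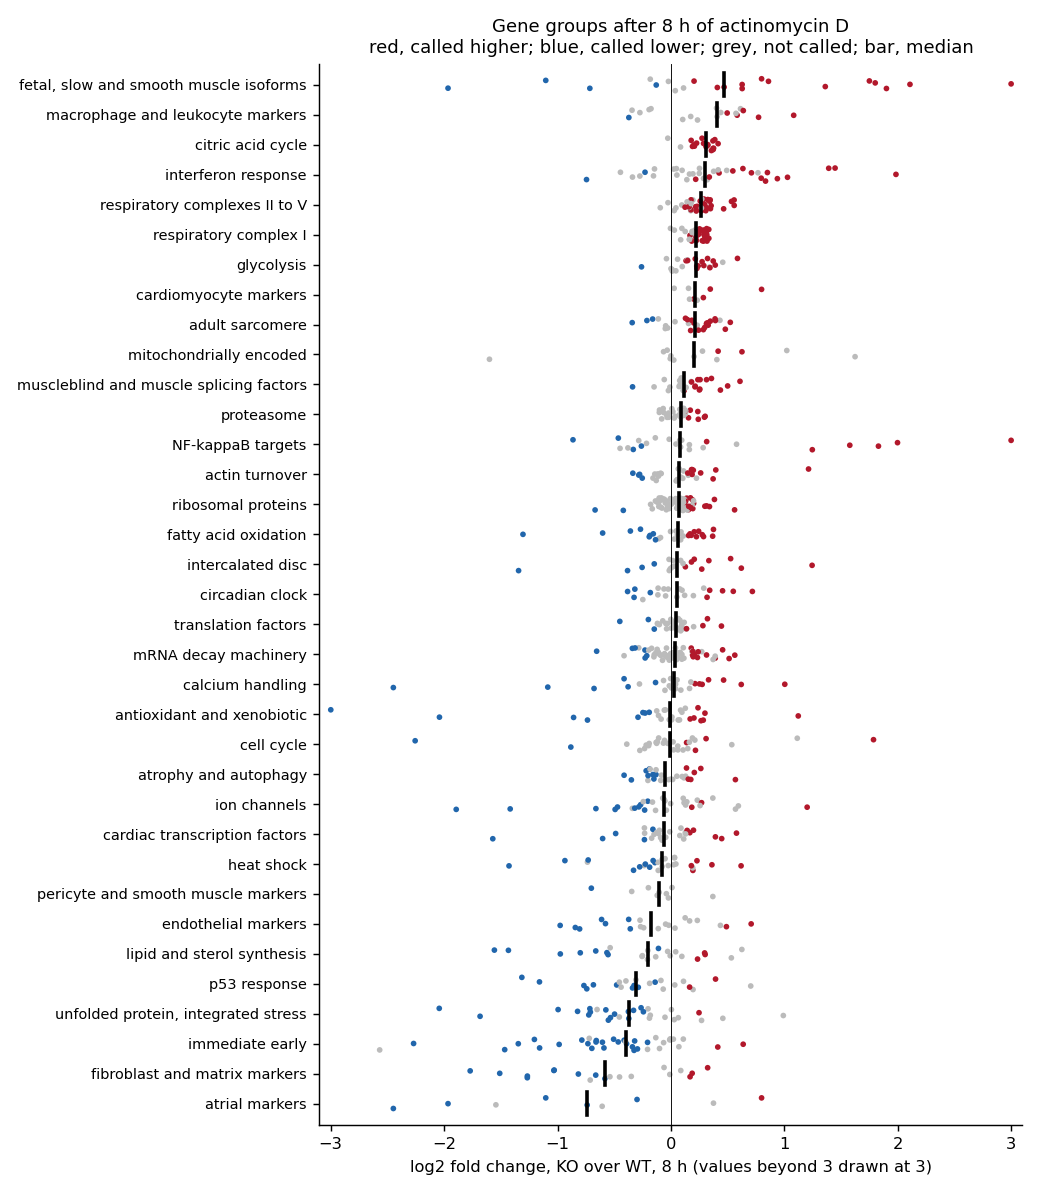
Log2 fold change of KO over WT at 8 h for each tested member (1 point a gene) of the gene lists, ordered by list median (black bar); red points were called higher, blue lower and grey not called, and values beyond 3 are drawn at 3. The citric acid cycle list has no blue point and 18 of 20 red, and the immediate early list has 22 of 38 blue.

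Markers of other cells were scarce beside cardiomyocyte markers and differed in direction. Fibroblast and matrix genes had 9 of 19 lower, such as Mmp2 (-1.77), Col3a1 (-1.51) and Dcn (-1.27), and 3 higher (Serpinh1 0.32), or 1 higher without KO replicate 1 or WT replicate 1. Dcn stood at 2.66, 2.43 and 4.03 CPM in KO and at 8.41, 6.69 and 6.91 in WT. The summed level of the list nevertheless overlapped, 370 to 401 CPM in KO and 357 to 385 in WT. Endothelial genes had 7 of 20 lower (Cd34 -0.98, Cav1 -0.81) and 2 higher (Flt1 0.71), with sums of 107 to 118 and 119 to 132 CPM; the number lower was 4 without KO replicate 1, KO replicate 2 or WT replicate 1. Pericyte and smooth muscle genes had 1 of 9 lower, Myh11 (-0.70), and sums of 559 to 609 and 542 to 642 CPM. None of 3 tested erythroid genes was called; their sums were 1.06 to 1.99 and 2.06 to 2.19 CPM. The part of these cells in the gene group differences was not tested.

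**Figure D3:**
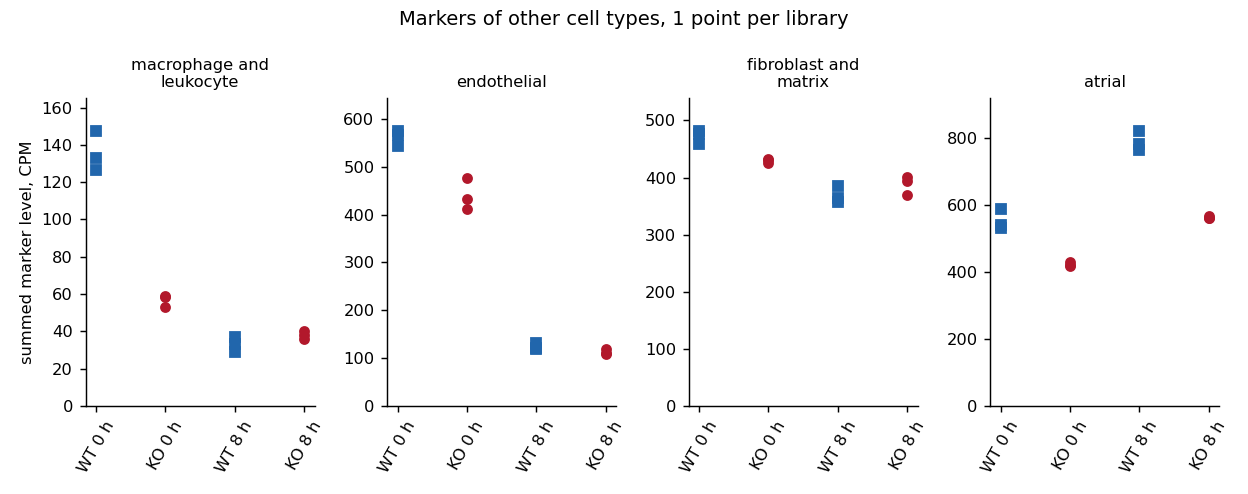
Summed TMM-scaled CPM of 4 marker lists in each library (1 point) at 0 h and 8 h, WT as squares and KO as circles. Macrophage markers lie at 127 to 148 CPM in WT at 0 h and at 28.8 to 37.0 at 8 h, while the KO libraries go from 52.9 to 58.7 to 35.7 to 40.2; atrial markers are lower in KO at both times.

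To place the 8 h differences, each gene was set beside its own difference at 0 h, before any drug, from libraries that the 8 h comparison does not share. The labels do not say whether libraries of different hours came from the same animals, and the model had no term for it. The 0 h and 8 h differences may thus not be independent. At 0 h 4848 genes (36.6%) were called and at 4 h 4227 (32%). Of the 3645 genes called at 8 h, 2328 were called in the same direction at 0 h, 50 in the opposite direction and 1267 not at all at 0 h. Most of those 1267 already leaned the same way at 0 h: 435 of 581 higher and 540 of 686 lower had the same sign. In 1923 genes the call was the same at all 3 times. Across the 13229 genes, Esr1 included, the 0 h and 8 h log2 differences had a Pearson r of 0.690 and a Spearman rho of 0.579. Among genes with a mean log2 CPM of at least 3, the Pearson r was 0.788 with Esr1 and 0.726 across 6663 genes without it. Genes are not independent replicates. Tnnt1 differed by 2.16 at 0 h and 2.11 at 8 h, Nr4a1 by -2.45 and -2.27, and Ucp3 by -1.30 at both times.

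**Figure D4:**
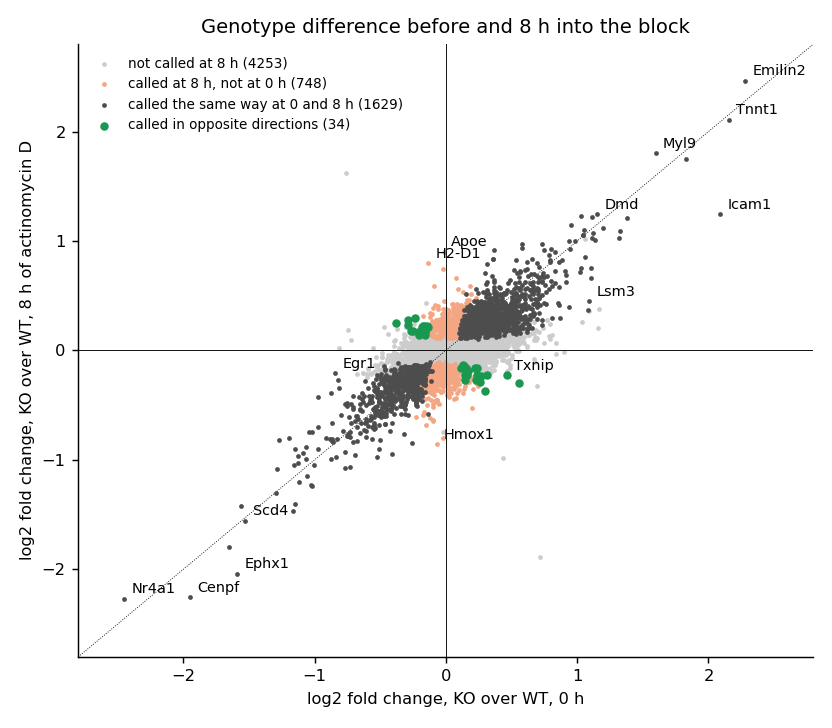
Log2 fold change of KO over WT at 8 h (vertical) against that at 0 h (horizontal) for genes with a mean log2 CPM of at least 3, 1 point a gene, coloured by the calls; the dotted line marks equal differences. Emilin2, Tnnt1 and Nr4a1 lie near the line, and Apoe and H2-D1 lie near 0 on the horizontal axis and above 0.7 on the vertical.

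The difference between the 8 h and the 0 h genotype difference was tested gene by gene as an interaction. It was called for 688 genes (5.2%), 248 with a higher and 440 with a lower KO-to-WT ratio at 8 h than at 0 h. Of the genes called at 8 h, 315 were among them, and of the 1267 not called at 0 h, 147 were. Scaled to ribosomal protein transcripts the count was 2958, and leaving out 1 library moved it between 422 (without KO replicate 2 at 8 h) and 925. It was 437 without WT replicate 1 at 8 h and 445 without KO replicate 3 at 0 h. Conversely, 2470 genes called at 0 h were not called at 8 h, and the interaction was called for 369 of them.

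Among genes also called at 8 h, with a mean log2 CPM of at least 3 and groups not overlapping, H2-D1 and Apoe had the largest rise of the KO-to-WT ratio from 0 h to 8 h. H2-D1, a class I heavy chain with near-identical relatives, was at 29.6 ± 1.63 CPM in KO and 32.5 ± 1.2 in WT at 0 h (SD, n = 3 each). At 8 h it was at 20.4, 20.4 and 20.9 against 12.4, 12.1 and 11.1, so the groups had parted. The interaction was 0.93 ± 0.10 (adjusted p = 1.6e-09). Apoe, apolipoprotein E, was at 27.6 ± 2.52 and 27.9 ± 1.69 CPM at 0 h and at 29.9 ± 0.705 and 16.0 ± 1.15 at 8 h (interaction 0.92 ± 0.10, adjusted p = 9.9e-10). Macrophages are known to express both genes, and the summed macrophage markers over the same hours went from 127 to 148 CPM in WT and 52.9 to 58.7 in KO at 0 h to overlapping ranges at 8 h. Of that list's 18 tested genes 17 were lower in KO at 0 h, and 13 had a higher ratio at 8 h by the interaction test; Lyz2 went from -1.55 to 0.50. The part of these cells in the H2-D1 and Apoe values was not tested.

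Egr1, an immediate early transcription factor, was lower in KO at both times but by less at 8 h: 103 ± 1.97 against 184 ± 13.4 CPM at 0 h and 126 ± 5.55 against 145 ± 4.24 at 8 h (interaction 0.64 ± 0.07). Hmox1, haem oxygenase, went the other way. It was not called at 0 h (32.8 ± 0.836 and 34.4 ± 3.17 CPM, adjusted p = 0.46 by edgeR) and at 8 h stood at 20.8, 25.1 and 20.3 in KO against 38.2, 38.7 and 43.0 in WT (interaction -0.79 ± 0.10). Txnip, an inhibitor of thioredoxin, changed sides: it was at 264 ± 12.6 CPM in KO and 192 ± 9.52 in WT at 0 h and at 90.0, 82.6 and 86.4 against 100, 100 and 103 at 8 h (interaction -0.69 ± 0.07, adjusted p = 7.2e-12). Icam1 kept its direction while its difference shrank from 2.09 to 1.25 on the log2 scale (interaction -0.84 ± 0.13).

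**Figure D5:**
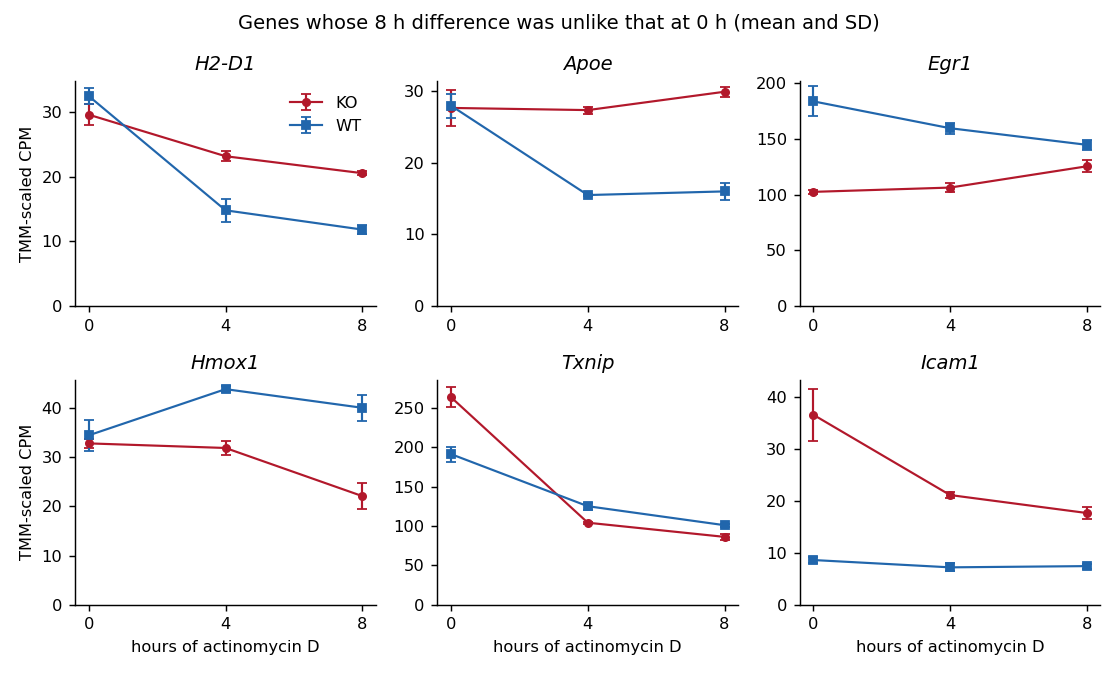
Mean TMM-scaled CPM with SD (bars) of 6 genes at 0, 4 and 8 h of actinomycin D in KO (circles) and WT (squares), n = 3 libraries a point except WT at 4 h with 2. H2-D1 and Apoe start close together and end apart, Hmox1 parts the other way, and Txnip is higher in KO at 0 h (264 against 192 CPM) and lower at 8 h.

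Ribosomal proteins had a lower KO-to-WT ratio at 8 h than at 0 h for many members under the scaling used here. Their median KO-to-WT difference was 0.38 at 0 h and 0.07 at 8 h, and 34 of 79 had a lower ratio at 8 h and none a higher one, with a median interaction of -0.30. Scaling bears on this, since with library size alone the median of all genes was -0.22 at 0 h and -0.12 at 8 h, against -0.02 at both times here. Scaled to ribosomal protein transcripts, the interaction of Actn2 went from -0.23 to 0.05 (adjusted p = 0.726 by edgeR). The adult sarcomere list had 11 of 28 lower and none higher (median 0.33 at 0 h, 0.22 at 8 h), and the proteasome 10 of 31 (0.24 and 0.09). Immediate early genes had 6 higher and 1 lower, with medians of -0.53 at 0 h and -0.40 at 8 h. The mixed list of fetal, slow-fibre and smooth muscle isoforms had 1 gene higher and 2 lower of 21. Macrophage and leukocyte markers had 13 of 18 higher and none lower. Over all genes tested 1.87% were higher and 3.33% lower.

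The share of genes called was also set against how a transcript behaved in WT cells during the first 4 h of the drug, a measure from other libraries. With genes cut into 5 equal bins by the change of their share from 0 to 4 h, 7.52% of the bin that fell most were called higher in KO at 8 h and 11.0% lower. In the bin that rose most it was 20.5% and 12.5%. Expression level runs along this order, and by level alone the share called higher went from 4.65% in the lowest of 5 bins to 33.6% in the highest. Among genes with a mean log2 CPM of at least 3, the share called higher went from 16.9% to 28.8% across the same order and the share called lower from 16.0% to 12.1%. These shares describe these libraries and were not tested.

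By position, called genes were spread over the genome, with 23.3 to 30.8% called on each nuclear chromosome. Within 5 Mb of Mbnl1 on chromosome 3, 9 of 26 tested genes were called (4 higher and 5 lower; 34.6%). Of 264 windows of 5 Mb with at least 20 tested genes (median share 26.9%), the one with the highest share was at 75 to 80 Mb of chromosome 17 and was picked after its values were seen: 13 of 21 genes were called, 8 higher and 5 lower (61.9%). There Strn stood at 26.2, 27.2 and 25.4 CPM in KO against 11.0, 12.6 and 12.0 in WT, and its neighbour Heatr5b was also higher (0.83 ± 0.07). The next genes, Gpatch11 (-0.95 ± 0.09) and Eif2ak2, the RNA-activated kinase PKR (-1.04 ± 0.09), were lower, so the neighbours did not share a direction. Both Strn (chr17:78649913-78737196; 0.95) and Eif2ak2 were already called in the same direction at 0 h.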

How the data were processed

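RNA from isolated cardiomyocytes was sequenced by BGI on the DNBseq platform, per the labels. The authors deposited a table of raw gene counts, and the submitters' notes on processing list STAR, featureCounts, DESeq2, limma and GRCm38 (mm10), with no role or strand setting stated. A deposited table of ratios was not used. The columns were matched to samples by title, and 1 row without a gene name (0.00735 to 0.0155% of counts) was left out. The deposited counts of 55486 genes, 99.5% of them in GENCODE M21, were filtered by filterByExpr to 13229, scaled by TMM and tested with edgeR 4.0.16 (R 4.3.3) by the quasi-likelihood F test in 1 model of 6 groups over 17 libraries, with no covariates. The Benjamini-Hochberg adjustment ran over every tested gene, with calls at 0.05. Standard errors are the log2 fold change over the root of F. The biological coefficient of variation was 5.29%.

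On simulated counts for this comparison (12785 genes fitted), 62 of 96 genes changed 1.5-fold and 86 of 100 changed 2-fold were recovered, with 10 false among 158 calls. The simulation used a single dispersion for all genes and, apart from the few changed genes, the same mean in every group. Recovery and false calls in the data may differ. Libraries of one group differed by more than sampling noise (chi-square over its Poisson value 1.49 to 1.89), so none were counted as 1. Named genes are the 15 highest and 15 lowest called genes with a mean log2 CPM of at least 3, non-overlapping groups and no predicted name, up to 2 called members each way of each of 36 gene lists, the 8 each way with the largest interaction, up to 5 each way with opposite calls at 0 h and 8 h, and Mbnl1, Mbnl2, Mbnl3 and Esr1; other list members are examples chosen after their values were seen. The comparison, its genes and the lists were chosen with earlier results of these data known. Alternatives were other scalings, filters and tools (DESeq2 1.42.0), the 8 h libraries alone, a replicate block and leaving out each library. A few list members are not reported here.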

Additional observations from a re-analysis of the deposited data

Results flagged for a closer look

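For 37 named genes the KO-to-WT difference at 8 h differed from that at 0 h by the interaction test of edgeR (adjusted p below 0.05). Of these, 16 met the rule that names genes by their interaction, and others were named for opposite calls at 0 h and 8 h. The count is thus set in part by the naming. Over all tested genes the interaction was called for 5.2%. The values below are the 8 h minus the 0 h log2 difference. The interaction was positive for 16 genes: Fcer1g (2.20), Tie1 (0.96), Cd74 (0.72), Smg1 (0.36), Col4a1 (0.29), H2-D1 (0.93), Apoe (0.92), Airn (0.68), Egr1 (0.64), Xpo6 (0.63), Reep3 (0.58), Atxn1 (0.57), Etl4 (0.55), Tmem170b (0.53), Sort1 (0.40) and Birc6 (0.37). It was negative for 21 genes: Ifit2 (-0.71), Myh11 (-0.63), Ephx1 (-0.45), Tnip1 (-0.38), Gsta4 (-0.27), Sqstm1 (-0.27), Xirp1 (-0.25), Etfa (-0.24), Actn2 (-0.23), Eif4a2 (-0.22), Ift43 (-0.85), Icam1 (-0.84), Hmox1 (-0.79), Zfp930 (-0.72), Endog (-0.72), Txnip (-0.69), Wdr55 (-0.66), Lsm3 (-0.64), Fas (-0.55), Mtmr14 (-0.50) and Obsl1 (-0.41).

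Several of these genes, Fcer1g and Tie1 among them, were called in opposite directions at the 2 times. Xpo6, an exportin, stood at 16.8 ± 2.0 CPM in KO and 21.8 ± 1.72 in WT at 0 h and at 21 ± 0.788 and 17.6 ± 0.728 at 8 h (SD, n = 3). Ift43, of intraflagellar transport, stood at 7.17 ± 0.179 and 4.88 ± 0.292 CPM at 0 h and at 8.39 ± 0.492 and 10.3 ± 1.26 at 8 h. Obsl1, a cytoskeletal linker of the obscurin family, stood at 52.7 ± 0.635 and 47.7 ± 1.18 CPM at 0 h and at 48.1 ± 2.96 and 58.0 ± 2.61 at 8 h. Atxn1, Tmem170b, Sort1 and Birc6 went from lower to higher in KO, and Txnip, Wdr55, Fas and Mtmr14 from higher to lower.

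Lsm3, an RNA-binding LSM protein of the decay and splicing rings, and Endog, a mitochondrial nuclease, were higher in KO at both times. Lsm3 stood at 23.6 ± 0.986 CPM in KO and 11.1 ± 0.908 in WT at 0 h, and at 25.4 ± 2.84 and 18.6 ± 1.01 at 8 h. Etl4 and Reep3 parted further by 8 h: Etl4 differed by 0.36 and then 0.92, and Reep3 by 0.07 (not called) and then 0.66. Airn, Reep3, Atxn1, Endog, Wdr55, Obsl1, Sqstm1, Eif4a2 and Col4a1 overlap a gene on the other strand, Airn overlapping Igf2r, and reads of such pairs cannot be told apart where counting ignores strand. Scaled to ribosomal protein transcripts, the interaction of Fas, Mtmr14, Obsl1, Wdr55, Zfp930, Ifit2, Ephx1, Tnip1 and Myh11 was no longer called, and that of Actn2, Xirp1, Etfa, Gsta4, Sqstm1 and Eif4a2 changed sign and was not called. With library size alone Ephx1, Actn2, Xirp1, Etfa, Tnip1, Gsta4, Sqstm1, Eif4a2 and Myh11 were not called either, and Smg1 (without KO replicate 2 at 8 h), Zfp930 (without WT replicate 1 at 8 h), Col4a1, Ephx1, Tnip1, Gsta4, Eif4a2 and Myh11 lost the call when 1 library was left out. The 8 h calls of Atxn1, Birc6, Cd74, Col4a1, Fas, Fcer1g, Ift43, Mtmr14, Sort1, Tie1, Tmem170b, Wdr55 and Xpo6 were lost under at least 1 alternative.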

How the results depend on the processing

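Scaling moved the balance of directions most, and the tool and the filter moved it too. Of 3645 calls, 1836 were higher and 1809 lower in KO; with library size alone the counts were 948 and 3042 (median of all genes shifted by -0.10), with ribosomal protein scaling 1014 higher, and DESeq2 called 1140 lower. Size factors of the RLE kind gave 56.7% of calls higher and leaving genes unfiltered 58.4%, against 50.4% here. Ribosomal protein scaling gave 2958 interaction calls, against 688, and 8121 and 7829 genotype calls at 0 h and 4 h, against 4848 and 4227, and it turned the sign of the interaction of Actn2 (0.047), Xirp1 (0.028), Etfa (0.038), Gsta4 (0.012), Sqstm1 (0.0066) and Eif4a2 (0.055). Leaving out each library gave 2982 to 3122 calls at 8 h (1530 to 1591 higher, 1436 to 1531 lower) and 422 to 925 interaction calls. The median of mitochondrially encoded genes ran from -0.032 (without KO replicate 2 at 8 h) to 0.26 over the libraries left out. Same-numbered KO and WT libraries at 8 h did not deviate together (r -0.0656 to -0.0319 over 3 pairs), and no library correlated best with its own number. With the replicate number as a block 3439 genes were called at 8 h, 1742 higher and 1697 lower. The over 2-fold count was 347 with a filter of 1 CPM in 3 libraries, 367 with the 8 h libraries alone and 390 with DESeq2, against 494. Of 158 named genes, 127 kept the direction and side of the threshold of their 8 h difference under every alternative, 31 lost the call under at least 1 and none reversed. No depth limit above the filter was set, and genes near 1 CPM rest on few counts.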

Other observations

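Some genes with predicted or clone names differed more than any named gene but Esr1, and were picked after their values were seen. Gm6969 stood at 0.483, 0.746 and 0.902 CPM in KO and at 50.3, 45.2 and 41.0 in WT at 8 h (log2 -5.99 ± 0.14, adjusted p = 2.8e-39 by edgeR). At 0 h its difference was -5.74. Gm15920 stood at 0.786, 0.56 and 0.721 CPM against 26.8, 24.2 and 23.5 (log2 -5.15 ± 0.14), and Gm43305 at 17.5, 15.9 and 16.2 against 0.355, 0.343 and 0.176 (5.79 ± 0.21). In all 3 the groups were far apart at 8 h and the 0 h difference had the same direction.

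Gm28437 behaved unlike these. It stood at 15.4, 386 and 737 CPM in the 3 KO libraries and at 13.4, 17.4 and 18.5 in WT, so KO replicate 1 lay within the WT range and the other two far above it (log2 4.53 ± 1.30, adjusted p = 0.023 by edgeR). Counts of the mitochondrially encoded mt-Co3 varied between KO libraries too, at 31.9, 207 and 16.1 CPM against 40.3, 25.3 and 16.8. The gene was not called (adjusted p = 0.23 by edgeR). These counts were a small part of the mitochondrial share of 35.1 to 36.9% in the 8 h libraries. Whether they follow the level of the transcript was not tested.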
